A study of Mus musculus with 2 samples.

Results

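The genes described here are 39 genes of the Z-disc and the costamere, taken by symbol from a list, out of 55536 genes in the gene tables. Total RNA was sequenced from hearts of 2 B6CASTF1/J females aged 25 days, an F1 hybrid of a laboratory strain and a wild-derived strain. The labels call both samples biological replicates of 1 group, with no treatment, mutation or second genotype, so no condition was compared. Both samples carry the same donor label but separate animal numbers, and they were taken as 2 animals. The RNA came from heart tissue with all the cell types it holds, and in such RNA fewer cells of a type and less RNA per cell cannot be told apart.

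The Z-disc is the border of the sarcomere, where actin filaments of opposite orientation are crosslinked by alpha-actinin and the ends of titin are anchored. The costamere couples the Z-discs nearest the cell surface to the membrane and the matrix outside through integrins, talin and vinculin. In heart muscle these proteins transmit force and also gather signalling proteins, and variants in many of them are known causes of cardiomyopathy in humans.

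Each library held 43190646 (replicate 1) and 42954475 (replicate 2) expected counts, which are fragments assigned to genes by probability. Levels are given in TPM, an abundance per transcript length that is scaled to a fixed total in each library. An SD is over the 2 animals. All 8 cardiomyocyte markers were detected, with a summed level of 38025 TPM in replicate 1 and 39611 TPM in replicate 2, while fast skeletal muscle markers summed to 3.40 and 3.47 TPM, mostly Tnni2 (2.74 and 2.12 TPM), with Myh1 and Myh4 listed at 0 in both. Markers of smooth muscle (251 and 190 TPM), fibroblasts (543 and 436 TPM) and endothelium (264 and 217 TPM) were also present in replicates 1 and 2.

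Of the 39 genes, 38 reached 1 TPM in both hearts, or 97.4%, beside 49.8% of 22015 protein-coding nuclear genes. The exception was Myoz1. The median gene of the list had a level of 84.7 TPM in replicate 1 and of 83.8 TPM in replicate 2, where the median protein-coding nuclear gene had 1.18 and 1.06 TPM. Together the 39 genes held 0.791% of all gene TPM in replicate 1 and 0.797% in replicate 2. The 6 highest (Tcap, Fhl2, Csrp3, Myoz2, Actn2 and Des) made up 60.9% and 62.5% of the list's TPM in replicates 1 and 2. When the genes were put in order of level, the ranges over both animals overlapped in 19 of 38 neighbouring pairs, so the exact order holds in parts only.

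**Figure D1:**
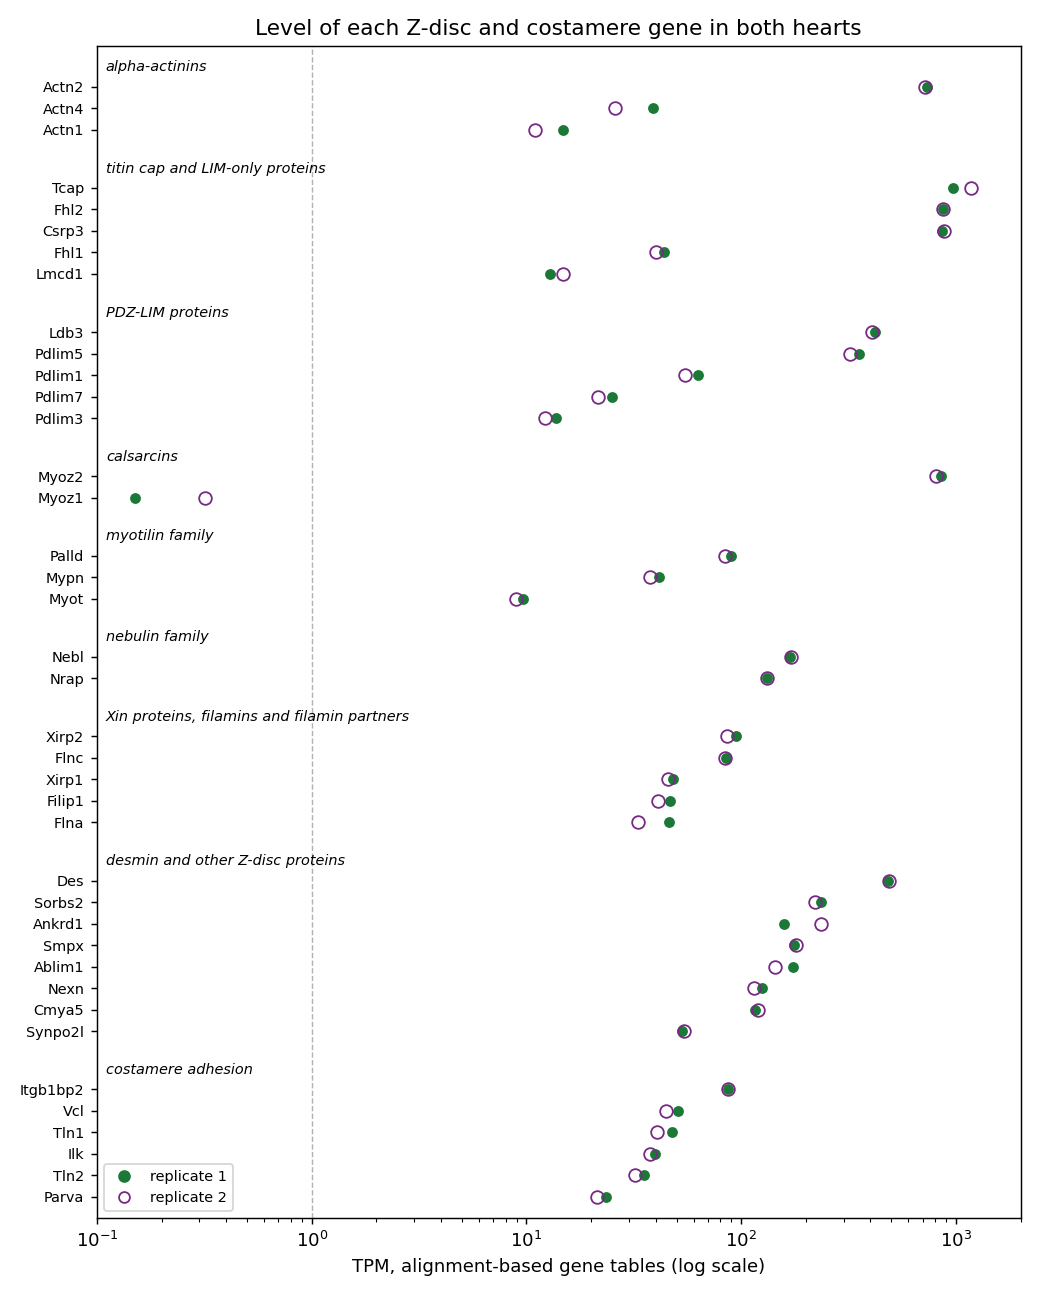
Level of each gene in TPM (horizontal, log scale) by role, with filled points for replicate 1 and open points for replicate 2; the dashed line marks 1 TPM. Most pairs of points nearly coincide, and Myoz1 lies alone below the line at 0.15 and 0.32 TPM.

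Among the alpha-actinins, Actn2, the sarcomeric crosslinker of actin at the Z-disc, had 732 TPM in replicate 1 and 719 TPM in replicate 2. Its non-muscle relatives were far lower: Actn4 had 38.7 and 25.9 TPM, and Actn1 had 14.7 and 10.9 TPM. Actn3, the fast-fibre form of skeletal muscle and no member of the list, had 0.16 and 0.15 TPM. On a log2 scale with a pseudocount of 0.1 TPM, Actn2 exceeded Actn1 by 5.83 ± 0.29 and Actn4 by 4.51 ± 0.39 (SD, n = 2). Such differences were not tested, since the smallest p that an exact test of signs allows with 2 animals is 0.5.

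The titin cap and the LIM-only proteins held the top 3 places. Tcap, which links the amino-terminal ends of titin at the Z-disc, had 969.6 TPM in replicate 1 and 1172 TPM in replicate 2. This was the highest mean of the list by alignment, while by the read-based values described further on its mean of 1032 TPM came after Csrp3 (1210 TPM) and Fhl2 (1138 TPM). Fhl2, an adaptor built of LIM domains, had 875 and 869 TPM, and Csrp3, the muscle LIM protein, had 861 and 881 TPM. The ranges of Fhl2 and Csrp3 overlapped, while those of Tcap and Fhl2 did not. Fhl1, the relative of Fhl2 that is also abundant in skeletal muscle, had 43.7 and 40.1 TPM, and Fhl2 exceeded it by 4.38 ± 0.08 on the log2 scale. Lmcd1, a LIM protein that acts as a transcriptional cofactor, was near the low end at 12.9 and 14.7 TPM. Csrp3 exceeded Csrp1 and Csrp2, relatives known from smooth muscle, by 5.46 ± 0.22 and 5.47 ± 0.17 on the log2 scale.

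Calsarcins bind alpha-actinin and the phosphatase calcineurin. Myoz2, the form of heart and slow muscle, had 848 TPM in replicate 1 and 806 TPM in replicate 2. Myoz1, the fast skeletal form, had 0.15 and 0.32 TPM, from 6 and 10 counts, and Myoz3 was listed at 0 in both. Only 1 of the 2 calsarcins on the list was thus detected at 1 TPM, with a log2 difference of 11.3 ± 0.58 between them.

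PDZ-LIM proteins bind alpha-actinin through the PDZ domain and recruit kinases through LIM domains at the carboxyl-terminal end. Ldb3 (also Cypher or ZASP) had 422 TPM in replicate 1 and 408 TPM in replicate 2, and Pdlim5 (ENH) had 352 and 320.3 TPM. Pdlim1 followed at 63.0 and 54.9 TPM, Pdlim7 (Enigma) at 25.1 and 21.5 TPM, and Pdlim3 (ALP) at 13.7 and 12.1 TPM. Ldb3 exceeded Pdlim7 by 4.15 ± 0.12, and Pdlim5 exceeded Pdlim1 by 2.51 ± 0.04 on the log2 scale. With the read-based values these differences were 3.50 ± 0.08 and 2.25 ± 0.06.

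Of these genes, Ldb3, Pdlim5 and Pdlim7 have annotated messages that stop early, before the exons that encode the LIM domains, and others that read through to the LIM end. The share of each end given below is summed over all complete coding transcripts of that kind. The final 45 coding bases of 1 transcript of each kind are printed in lower case, with the stop codon in capitals (GENCODE M21 sequences, 5′ to 3′, mm10, all on the minus strand).
Ldb3-203, early stop: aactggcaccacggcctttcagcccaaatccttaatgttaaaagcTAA
Pdlim5-205, early stop: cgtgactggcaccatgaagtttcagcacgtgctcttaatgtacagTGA
Pdlim7-202, early stop: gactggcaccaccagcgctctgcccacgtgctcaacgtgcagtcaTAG
Ldb3-201, LIM end: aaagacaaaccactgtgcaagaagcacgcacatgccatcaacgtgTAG
Pdlim5-206, LIM end: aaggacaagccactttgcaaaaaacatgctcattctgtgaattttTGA
Pdlim7-201, LIM end: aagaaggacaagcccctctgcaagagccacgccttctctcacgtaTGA
The stop codons lie at chr14:34561785-34561787 (Ldb3-203), chr3:142303328-142303330 (Pdlim5-205), chr13:55507027-55507029 (Pdlim7-202), chr14:34529460-34529462 (Ldb3-201), chr3:142242680-142242682 (Pdlim5-206) and chr13:55498648-55498650 (Pdlim7-201). Without gaps, and with at most 6 bases of in-frame shift, the early ends of Ldb3 and Pdlim5 shared 28 of 42 bases, and their LIM ends shared 31 of 45. The coding sequence runs to 981, 717 and 564 bases in the printed early-stop transcripts of Ldb3, Pdlim5 and Pdlim7. In the printed LIM-end transcripts it runs to 2169, 1842 and 1371 bases. Over all early-stop transcripts of these genes it ranges from 864 to 981, 642 to 1011 and 564 to 666 bases. Read-based, most of the LIM end of Ldb3 lay on Ldb3-205 (22.8% and 22.9% of the gene in replicates 1 and 2). Ldb3-201 held 0.20% and 0.87%.

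In both hearts the early-stop messages made up most of Ldb3 and Pdlim5. For Ldb3 the early stop carried 75.6% of the gene's transcripts in replicate 1 and 75.3% in replicate 2, or 319 and 307 TPM. The LIM end of Ldb3 carried 24.4% and 24.7%. For Pdlim5 the early stop carried 96.5% and 96.4%, or 339.9 and 309 TPM, and the LIM end 12.1 and 11.5 TPM. The second deposited quantification, made from the sequence reads and called read-based here, gave 73.1% and 72.6% for the early stop of Ldb3 and 96.4% and 96.6% for that of Pdlim5. For both genes the 2 animals and both quantifications lay within 3 percentage points of each other. Pdlim7 depended on the quantification: its early stop carried 77.8% and 81.1% by alignment but 50.9% and 50.6% by the read-based values, where incomplete or noncoding transcripts took up the rest. The LIM end of Pdlim7 stayed the smaller at 12.5% and 12.7% by alignment and 8.72% and 8.94% read-based.

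**Figure D2:**
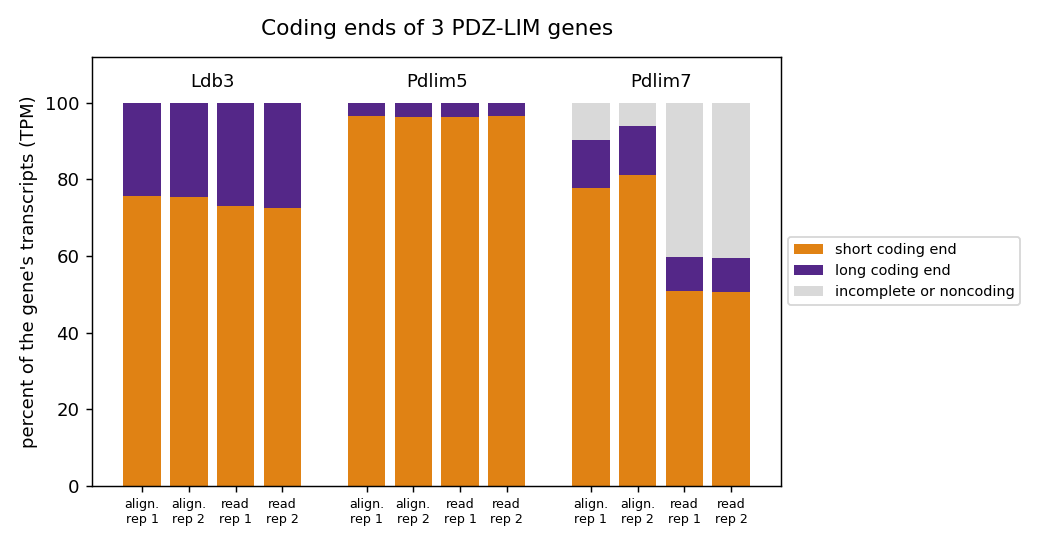
Percent of each gene's transcript TPM (vertical) that ends at the early stop (short coding end), at the LIM end (long coding end) or in incomplete or noncoding transcripts, for replicates 1 and 2 in both quantifications. Ldb3 and Pdlim5 bars look alike in all 4 columns, and Pdlim7 differs between the quantifications.

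The myotilin family are immunoglobulin-domain proteins that bind alpha-actinin or actin. Palld, the broadly expressed palladin, was the highest with 89.8 TPM (replicate 1) and 84.1 TPM (replicate 2). Mypn, the striated muscle form myopalladin, had 41.6 and 37.5 TPM, and Myot had 9.68 and 8.95 TPM. Mypn was thus 1.14 ± 0.04 below Palld on the log2 scale (difference -1.14) and 2.07 ± 0.03 above Myot. Of the nebulin family, Nebl, the gene of the cardiac nebulette that binds actin at the Z-disc, had 169 and 171 TPM over all its transcripts. The highest of these by alignment was Nebl-208, a noncoding transcript of 436 bases with 53.61 and 53.45 TPM. Nebl-202, with 3042 coding bases, had 47.65 and 48.58 TPM. Nrap, an anchoring protein of the myofibril ends, had 132 TPM in each. Neb, the skeletal muscle nebulin, had 2.01 and 1.85 TPM.

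Xin proteins bind actin at the intercalated disc, and filamins crosslink actin and tie it to the membrane. Xirp2 had 94.6 TPM in replicate 1 and 86.0 TPM in replicate 2, and Xirp1 had 48.2 and 45.8 TPM. Flnc, the muscle filamin, had 84.7 and 83.8 TPM, where Flna, the filamin of most tissues, had 46.2 and 33.0 TPM. Flnc exceeded Flna by 1.11 ± 0.33 on the log2 scale, by 0.87 in replicate 1 and 1.34 in replicate 2. Filip1, a binding partner of filamin A, had 46.9 and 41.0 TPM.

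Des, the intermediate filament that ties Z-discs to one another, had 485 TPM in replicate 1 and 491 TPM in replicate 2. Ankrd1, a cardiac ankyrin repeat protein that binds titin and also acts in the nucleus, had 158 and 236 TPM, and its animals lay well apart. Sorbs2, an adaptor of actin and signalling proteins, had 235 and 222 TPM. The other genes of this kind lay between 53.3 and 181 TPM. Smpx, a small protein of striated muscle, had 176 and 181 TPM. Ablim1, an actin-binding LIM protein, had 174 TPM in replicate 1 and 144 TPM in replicate 2, with more distance between the animals than the rest. Nexn, an actin-binding protein of the Z-disc, had 125 and 114 TPM. Cmya5 (myospryn), a very large binding partner of desmin, had 117 and 119 TPM. Synpo2l, a relative of synaptopodin at the Z-disc, was the lowest at 53.3 and 54.4 TPM.

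Genes of costamere adhesion were lower and closer together. Itgb1bp2 (melusin), a muscle partner of beta1 integrin, led with 87.1 TPM (replicate 1) and 87.0 TPM (replicate 2). Vcl (vinculin) had 50.7 and 44.9 TPM, and Tln1, the talin of most tissues, had 47.6 and 40.7 TPM. Tln2, the talin enriched in muscle and brain, had 35.2 and 32.1 TPM and thus lay below Tln1 (log2 difference -0.39 ± 0.06). Ilk, a pseudokinase of integrin adhesions, had 39.9 and 37.5 TPM, and its partner Parva had 23.6 and 21.4 TPM. Parvb, the relative of Parva that binds Ilk in the same way, was the higher of the parvins at 56.4 and 54.4 TPM (log2 difference of Parva to Parvb -1.30 ± 0.06, and -0.58 ± 0.04 in the read-based values).

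Over 20 such pairs of related genes, the first-named gene was the higher in both animals in 17. It was the lower in both in 3 (Tln2 to Tln1, Mypn to Palld and Parva to Parvb). The second gene was a broadly expressed relative in some pairs and another muscle gene, such as Actn3, Myoz1 or Neb, in others. The pairs were chosen with earlier results of these data known, so the count is a description. Of 40 other Z-disc and costamere genes outside the list, 37 reached 1 TPM in both hearts. Among the highest were the small heat shock proteins Cryab (999.9 and 969.7 TPM in replicates 1 and 2) and Hspb7 (439 and 449 TPM), and those below 1 TPM were Actn3, Ankrd2 and Myoz3.

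The 2 hearts were then compared gene by gene. Counts were scaled by TMM (trimmed mean of M-values), and the split of each gene's counts between the libraries was tested with a two-sided exact binomial test, adjusted by Benjamini-Hochberg over the 15850 genes that averaged 10 counts or more. The ratio is replicate 1 over replicate 2. With 1 library on each side, the test covers counting error only and says that 2 libraries differ, not why. At an adjusted p under 0.05, 24 of 38 members tested differed, against 20.6% of all genes tested. Depth matters for such a count: among genes averaging 1000 counts or more the share was 39.8%, and 23 of 34 members at that depth differed. With a ratio of at least 1.5 required as well, 1 of 38 members remained, against 3.85% of all genes. The median absolute log2 ratio was 0.09 for members, 0.08 for all genes averaging 1000 counts or more and 0.14 for all genes tested.

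The member past 1.5-fold was Ankrd1 (chr19, minus strand). It had 9809 counts in replicate 1 and 15167 counts in replicate 2, a ratio of 0.626 (95% exact interval 0.611 to 0.642; adjusted p = 1.3e-289, exact binomial test). Next in size were 3 genes that were higher in replicate 1 and 2 that were lower. Flna had a ratio of 1.31 (1.27 to 1.35), Actn1 1.28 (1.18 to 1.39) and Actn4 1.28 (1.22 to 1.34). Tcap had a ratio of 0.776 (0.764 to 0.788) and Lmcd1 0.822 (0.743 to 0.909). These 6 genes kept their direction under all scalings tried, though the call of Lmcd1 was lost with spike-in totals (adjusted p = 0.061, exact binomial test) and the ratio of Ankrd1 fell short of 1.5-fold there.

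Of the 24 members, 9 were higher in replicate 1, where 10.3% of all genes tested were called in that direction, and 15 were higher in replicate 2, where also 10.3% of all genes were. This split rests on the scaling. It was 12 and 14 with DESeq2 size factors, 14 and 13 with total counts, 7 and 18 with read-based counts, and 23 and 2 with ERCC spike-in totals, which moved the median log2 ratio of all genes to 0.10 from -0.01 with TMM. In 11 members, among them Actn2, Ldb3 and Fhl2, the TPM of replicate 1 was the higher while its scaled count was the lower.

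The members were also grouped by where they are known to be expressed, from textbook knowledge. Of 11 genes known from many tissues, 10 had the higher scaled count in replicate 1 and 7 were called so (Flna, Actn1, Actn4, Ablim1, Pdlim1, Vcl and Tln1), with none called the other way. Of 20 genes known mainly from striated muscle, 16 had the higher scaled count in replicate 2 and 13 were called so, with 1 (Xirp2) called the other way. The median log2 ratio was 0.14 for the first set and -0.09 for the second. With spike-in totals the medians were 0.25 and 0.02, and 12 of the 20 muscle genes then had the higher count in replicate 1. The scaling adds 1 constant to every gene, 0.11 for spike-in totals over TMM, so the distance between the medians is the same under each. The other 7 members tested, genes of muscle and some other tissues, were divided, with 3 higher in replicate 1 (1 called) and 4 higher in replicate 2 (2 called). Of all genes tested, 10.3% were called in each direction. Among genes averaging 1000 counts or more, 39.8% were called in either direction. With TMM, 8220 of the 15850 genes tested had the higher scaled count in replicate 2 and 7630 in replicate 1. Of the 4477 genes averaging 1000 counts or more, 2633 had it in replicate 2 and 1844 in replicate 1.

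Markers of other cell types moved with these genes. All 6 smooth muscle markers, 6 of 7 fibroblast markers and 5 of 6 endothelial markers had the higher scaled count in replicate 1, with 5, 4 and 5 past the test, and none was called higher in replicate 2. Their summed levels were 251, 543 and 264 TPM in replicate 1 and 190, 436 and 217 TPM in replicate 2. The 8 cardiomyocyte markers were all called higher in replicate 2, and their median ratio was -0.14 on the log2 scale. With spike-in totals that median was -0.03, and 2 of the 8 were called higher in replicate 1 and 6 in replicate 2. These counts of markers stand beside the 10.3% of all genes tested that were called in each direction. The part of these markers in the members' differences was not tested.

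**Figure D3:**
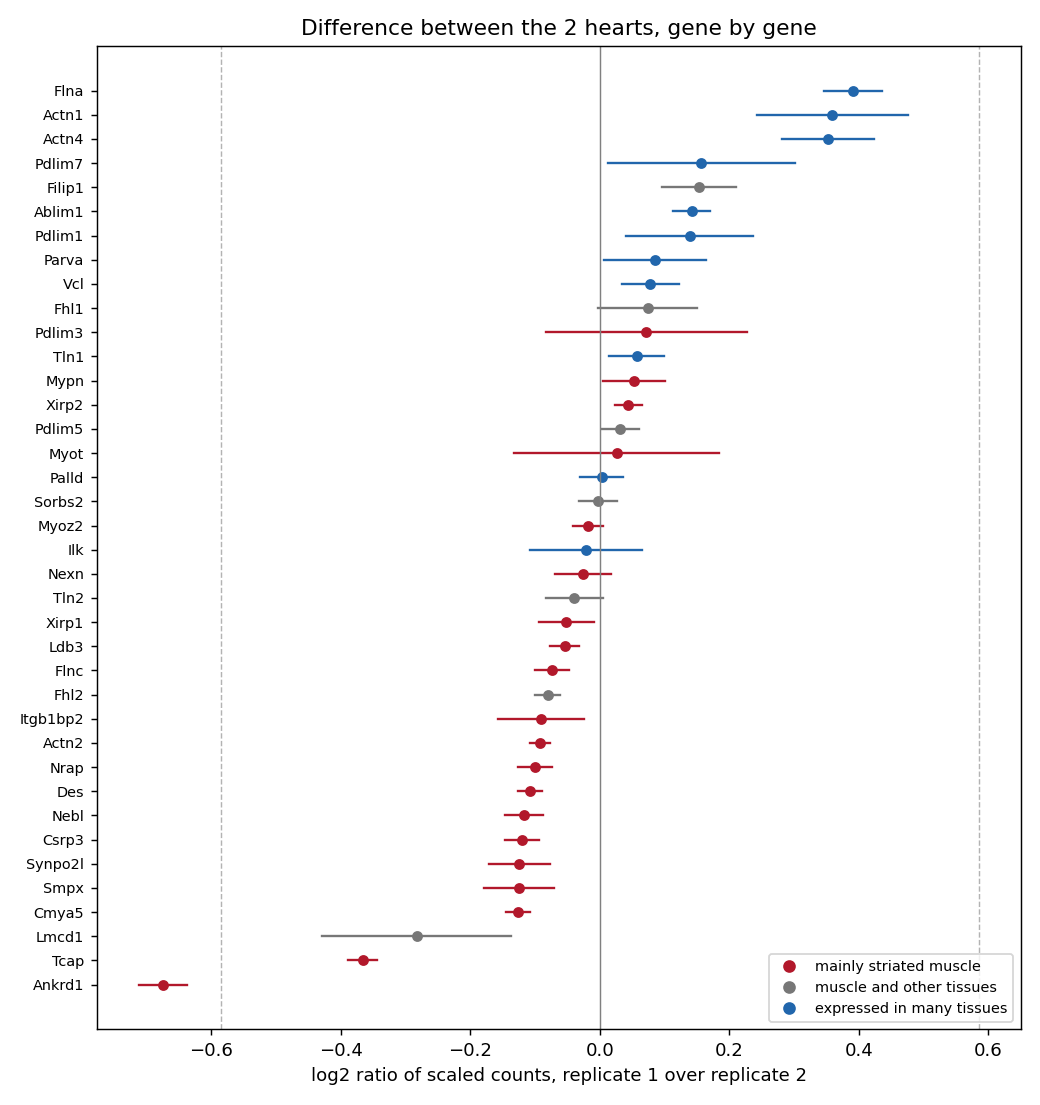
Log2 ratio of TMM-scaled counts, replicate 1 over replicate 2 (horizontal), for the 38 members tested, with exact 95% intervals of counting error and colours for where the gene is known to be expressed; dashed lines mark 1.5-fold. Ankrd1 alone lies past a dashed line, and genes of many tissues lie mostly right of 0, where with spike-in totals most muscle genes would lie too.

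Promoter windows are printed for Ankrd1, the member past 1.5-fold, and for both starts of Fhl2 whose use is described next, from 250 bases before to 50 bases after the annotated start (RefSeq, GRCm38.p6, minus strand, 5′ to 3′). Capitals mark matches, on either strand, to the TATA letters (TATAAA), the MCAT element (CATTCC), the GC box (GGGCGG), the CArG box and the MEF2 site.
Ankrd1, chr19:36119795-36120094: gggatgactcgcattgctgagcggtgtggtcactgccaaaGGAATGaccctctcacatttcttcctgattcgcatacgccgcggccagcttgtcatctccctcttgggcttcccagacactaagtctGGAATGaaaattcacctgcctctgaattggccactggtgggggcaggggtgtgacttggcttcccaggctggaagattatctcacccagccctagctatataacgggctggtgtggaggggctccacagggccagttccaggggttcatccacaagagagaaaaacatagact
Fhl2, upstream start, chr1:43196712-43197011: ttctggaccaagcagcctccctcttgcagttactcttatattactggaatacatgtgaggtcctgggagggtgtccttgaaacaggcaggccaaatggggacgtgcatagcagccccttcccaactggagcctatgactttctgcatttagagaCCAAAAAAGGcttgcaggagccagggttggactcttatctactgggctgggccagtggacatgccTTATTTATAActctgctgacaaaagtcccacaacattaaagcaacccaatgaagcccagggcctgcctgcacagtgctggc
Fhl2, downstream start, chr1:43163912-43164211: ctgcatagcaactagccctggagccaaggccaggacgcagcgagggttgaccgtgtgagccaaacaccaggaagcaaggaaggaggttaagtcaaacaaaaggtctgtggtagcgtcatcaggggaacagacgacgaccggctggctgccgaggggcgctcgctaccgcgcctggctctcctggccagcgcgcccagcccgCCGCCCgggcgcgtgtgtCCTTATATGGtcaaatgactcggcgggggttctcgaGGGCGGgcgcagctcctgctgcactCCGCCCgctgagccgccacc
The Ankrd1 window held CATTCC, in reverse, at positions -210 and -123, counted from the RefSeq start. The GENCODE starts of the coding Ankrd1 transcripts quantified here lie upstream of that start, at 36120099 and 36119910. This window therefore lies wholly within the gene as GENCODE annotates it. The upstream Fhl2 window held a CArG box at -96 and a MEF2 site at -31 whose bases overlap the reverse of TATAAA at -28. The downstream Fhl2 window held a CArG box at -31 and GGGCGG or its reverse at -49, 6 and 31. Promoter windows were found for 31 of the 39 members, 53 windows in all, some of them overlapping.

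A CArG box, the letters bound by serum response factor, stood in 9 of 53 member windows (17.0%), from 7 genes (Fhl1, Fhl2, Filip1, Ldb3, Lmcd1, Nebl and Vcl), against 1.63% of 32851 windows of all genes. A MEF2 site stood in 6 member windows (11.3%), from Fhl2, Filip1, Myoz2, Synpo2l and Xirp2, against 3.19%. CATTCC stood in 22.6% against 14.7%, TATAAA in 13.2% against 13.6%, and GGGCGG in 41.5% against 35.7%. Overlapping windows of Ldb3 hold the same CArG box, which is counted in each. By gene, the CArG box stood in 22.6% of 31 members against 1.81% of 27025 genes, and the MEF2 site in 16.1% against 3.70%. CATTCC stood in 32.3% against 16.6%, TATAAA in 19.4% against 15.7% and GGGCGG in 61.3% against 38.2%, also by gene. Members had more windows per gene, with 53 for 31 members against 32851 for 27025 genes. These are matches of letters, counted without a test.

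Fhl2 was made from 2 starts that each held a large share. The gene lies at chr1:43123074-43196984 on the minus strand, and both starts lead to the same 837-base coding sequence. The downstream start carried 60.3% of the gene in replicate 1 and 59.7% in replicate 2, and the upstream start 39.7% and 40.3%. The read-based values were nearer to equal shares, with 51.2% and 49.9% for the downstream start and 48.8% and 50.1% for the upstream one.

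Among coding transcripts, starts more than 500 bases apart were counted as separate, and a start as used where it held at least 10% of the gene in both animals by both quantifications. By this rule 26 members used 1 start, 10 used 2 and 2 (Nexn and Tln2) used 3. Csrp3 had none that passed, since the quantifications named different starts. For Pdlim5 the downstream start held 68.5% in replicate 1 and 71.0% in replicate 2 by alignment, but 47.0% and 47.7% read-based. Palld was steadier at its upstream start, which held 65.9% and 67.2% by alignment and 68.4% and 70.1% read-based. The leading transcript of this start, Palld-204 with 4224 coding bases, held 50.3% and 50.6% of the gene by alignment. The downstream start of Palld, with 1989 coding bases in its leading transcript, held 30.2% and 29.3% by alignment and 24.2% and 22.9% read-based. Synpo2l had 62.0% and 61.5% at its upstream start by alignment, and 71.7% and 73.2% read-based. The leading transcript of that start has 2925 coding bases, and the rest came from a downstream start with 2247. Parva had 68.0% and 65.3% at its upstream start by alignment and 79.2% and 73.8% read-based. In these last 2 genes the upstream start led in both animals by both quantifications, with shares that differed between the quantifications.

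**Figure D4:**
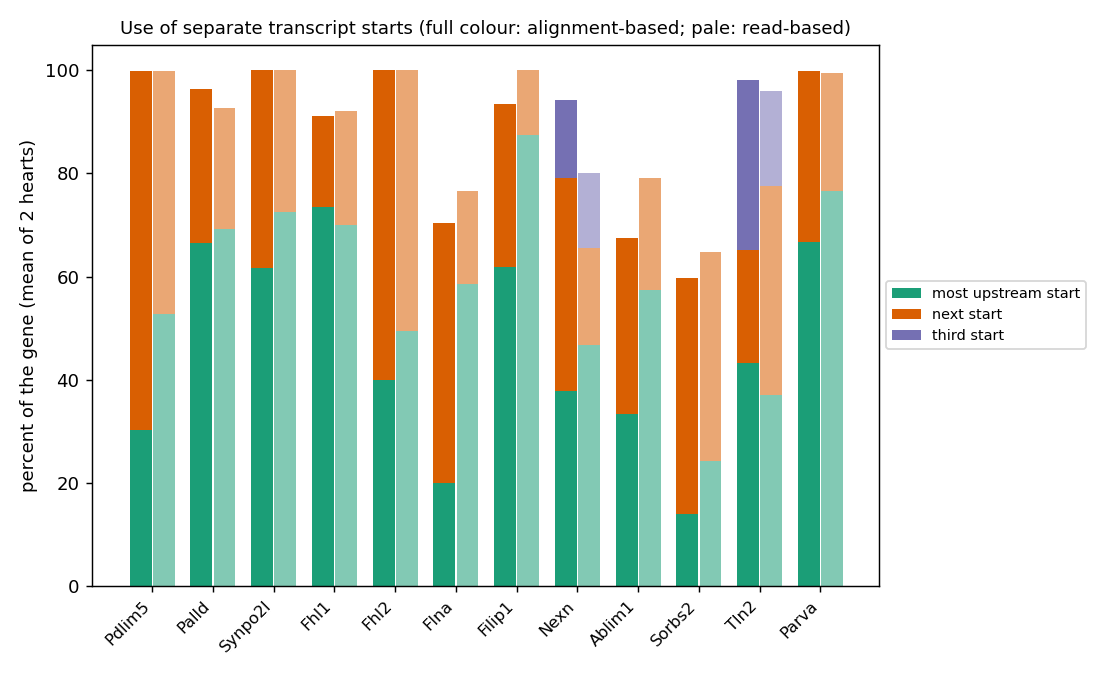
Percent of each gene's transcripts (vertical, mean of both animals) from each separate start used, for the 12 members with more than 1, by alignment (full colour) and read-based values (pale). Palld and Fhl1 show the closest division in both (upstream start of Palld 66.6% and 69.2%, of Fhl1 73.5% and 70.0%), and in Pdlim5, Flna, Nexn, Ablim1 and Tln2 the leading start is not the same in both.

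The leading transcript was mostly the same in both animals. Among the 35 members with several transcripts and at least 1 TPM, it was the same in 34 by alignment (97.1%) and in 32 by the read-based values (91.4%), against 89.5% and 86.3% of 10272 such genes. The exception by alignment was Myot. Both quantifications named the same leading transcript in both animals in 25 of 35 members (71.4%), against 68.4% of all such genes. Protein-coding transcripts held a median of 97.1% of a member by alignment, the lowest being Nebl at 60.9% in replicate 1 and 61.2% in replicate 2. By the read-based values the lowest were Smpx at 37.4% in replicate 1 and Pdlim1 at 46.1% in replicate 2. The class includes incomplete transcripts. Those with a complete coding sequence held 12.5% of Pdlim1 in replicate 1 and 11.7% in replicate 2 by alignment.

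Some members kept 1 dominant message under both quantifications. Vcl-201, with a coding sequence of 3198 bases, held 97.1% of Vcl in replicate 1 and 97.3% in replicate 2 by alignment and 95.1% and 94.5% read-based. Xirp2-202, with 9849 coding bases, held 100% in both by alignment, and Mypn-201 held 99.3% and 99.7%. Actn2-201 held at least 93.0% in each animal by alignment, but 78.5% in replicate 1 and 75.2% in replicate 2 by the read-based values.

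Elsewhere the quantifications named different transcripts. Csrp3-201 held 97.4% of Csrp3 in replicate 1 and 97.9% in replicate 2 by alignment, whereas Csrp3-202, with the same 582 coding bases, held 75.4% and 79.1% read-based. Smpx-208 led Smpx by alignment with 66.2% and 65.7%, and the read-based values put 49.5% and 41.3% on Smpx-201, annotated as a target of nonsense-mediated decay, which had 0.30% and 0.29% by alignment. Des-202, a retained-intron transcript of 835 bases, had 2.52% and 2.82% of Des by alignment and 46.1% and 45.6% read-based. The gene levels moved as well, with read-based means of 1210 TPM for Csrp3, 253 TPM for Smpx and 823 TPM for Des, against 871, 178 and 488 TPM by alignment.

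Over all 39 members the read-based level was a median of 1.14 times the alignment-based level (0.897 to 1.81), close to the 1.17 of protein-coding nuclear genes of at least 1 TPM. It was at least 1.5 times as high in 4 members: Pdlim7 (1.81), Sorbs2 (1.76), Des (1.69) and Pdlim1 (1.52). Each of these 4 had short, incomplete or retained-intron transcripts with larger shares in the read-based values. In Pdlim1 the incomplete Pdlim1-202 went the other way, from a mean of 50.7% by alignment to 39.6%. Members below 1.5-fold also had such gains, among them Csrp3 (Csrp3-203, 1.1% to 17.9%) and Ilk (Ilk-204, 2.2% to 19.9%). The part of these transcripts in the level differences was not tested.

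**Figure D5:**
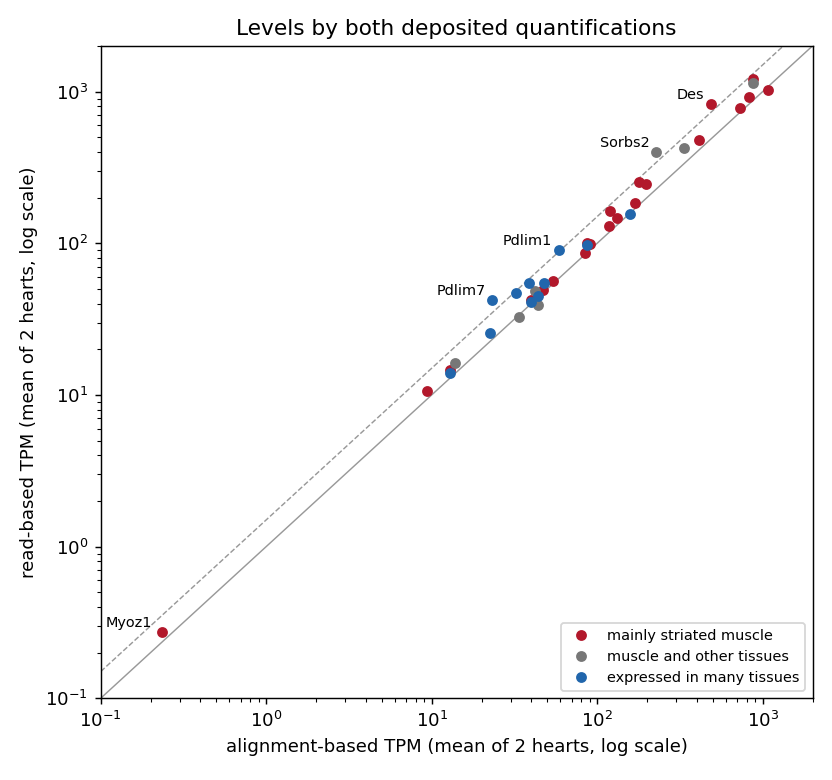
Read-based against alignment-based level of the 39 members (TPM, mean of both animals, log axes), coloured by where the gene is known to be expressed; the solid line marks equal levels and the dashed line 1.5-fold. Pdlim7, Sorbs2, Des and Pdlim1 lie on or above the dashed line.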

How the data were processed

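Heart RNA of 2 mice was sequenced. Builds and annotation listed with the files are mm10 and GENCODE M21; no source used here names the tools. The authors deposited 2 quantifications that are not normalized: expected counts per gene and transcript from alignments, and estimated counts per transcript from reads, which were summed here to genes. TPM was deposited alongside both, scaled by the authors to all entries with the spike-ins among them. The percent column deposited in the alignment-based transcript tables gives each transcript's part of its gene. The score columns deposited in the gene tables bound a credibility interval on TPM, of unstated level, and were not used.

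The 96 ERCC entries and 26249 tRNA and phiX entries were left out of the genes, and 86 genes are not in the read-based tables. Expected counts were rounded for the test. TMM factors came from edgeR 4.0.16 and size factors from DESeq2 1.42.0, in R 4.3.3; other steps used Python 3.11.15, scipy 1.17.1 and pandas 2.3.3. The edgeR quasi-likelihood test was not run, because 1 library a side leaves no residual degrees of freedom. Exact 95% intervals cover nothing but counting error. The chi-square over all genes tested was 13.6 times its degrees of freedom. It was 37.8 times over genes averaging 1000 counts or more, and 100.4 times over the 38 members tested. The split test was tested on simulated counts that held counting noise only. That run cannot show how the test behaves with the wider spread seen here. Every member is named, with related genes of the pairs, the highest other Z-disc genes (of the 5 the rule names, some are not reported here) and those below 1 TPM, and markers as list summaries; Lims2 and single markers were named after their values were seen. Members, lists, pairs and tests were chosen with earlier results of these data known.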

Additional observations from a re-analysis of the deposited data

How the results depend on the processing

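No paired analysis was possible because the series holds 1 group, so replicate numbers pair nothing. The number of members detected, the count of pairs, the 24 members that differed and the leading transcripts shared by both animals stayed within 1.5 times under every alternative run. The median member level was 90.4 TPM with read-based values, 82.7 TPM with posterior mean TPM and 216 TPM when rescaled to protein-coding nuclear genes, against 84.2 TPM. The members' share of TPM was 0.968%, 0.781% and 2.02% in the same order, against 0.794%. The median share of protein-coding transcripts was 98.8% read-based.

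With ERCC spike-in totals in place of TMM, no member differed by 1.5-fold (0), and the members' median log2 ratio was 0.088 (-0.02 with TMM). Members changed direction to log2 ratios of 0.015 (Actn2), 0.053 (Ldb3), 0.090 (Myoz2), 0.027 (Fhl2), 0.056 (Xirp1) and 0.034 (Flnc). Others that did so were Nrap (0.0079), Nexn (0.081), Sorbs2 (0.11), Tln2 (0.068) and Itgb1bp2 (0.017). Ilk, with a log2 ratio of -0.022 under TMM, turned as well. These changes follow from the scaling, which adds 0.11 to every gene's log2 ratio, so that members with small negative ratios turn. Levels of single members moved by more than the SD in 30 of 39 with read-based values. The log2 differences of related genes did so in 14 of 20 pairs.

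With 2 animals of 1 group, an SD has little precision, and the difference between animals cannot be told apart from one between library preparations. Levels below a mean count of 10 (Myoz1) were not tested. Shares of transcripts rest on annotated models, and reads of both parental strains were assigned to 1 reference; allele-specific signal was not analysed here.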

Other observations

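Outside the list, the other Z-disc and costamere genes gave 19 of 38 tested with the higher scaled count in each animal. Against 3.85% of all genes tested, 1 of these 38 differed by at least 1.5-fold at an adjusted p under 0.05. This was Lims2, a LIM-domain partner of Ilk at integrin adhesions, with 43.8 TPM in replicate 1 and 28.1 TPM in replicate 2 and a ratio of 1.54 (1.43 to 1.66, exact interval). Its relative Lims1 had 74.1 and 72.6 TPM. Ankrd23, a relative of Ankrd1 in the same titin-binding family, had 82.9 TPM in replicate 1 and 78.0 TPM in replicate 2, so that Ankrd1 exceeded it by 0.93 on the log2 scale in replicate 1 and by 1.59 in replicate 2.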
